A study of Mus musculus with 12 samples.

Results

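The response of Arkadia-null mouse embryonic stem cells to 6 h of Activin A was followed in 4 of the 12 libraries of the series. Arkadia is the E3 ubiquitin ligase that Rnf111 encodes. The 4 libraries were those of null lines 25 and 39 in SB431542 (SB), an inhibitor of the type I receptor kinases for Activin, Nodal and TGFβ, and after 6 h of Activin, each line being set against itself. All lines, WT lines 18 and 26 included, were of strain 129SvEv, and the labels give the lines as WT or as null for Arkadia with no further detail of the allele. Cells kept in LIF with inhibitors of GSK3 and MEK spent 24 h in N2B27 on fibronectin and then 4 h in N2B27 with 10 µM SB. One dish per line was then harvested as the SB sample, and the others, rinsed free of inhibitor, spent 3 or 6 h in N2B27 with Activin A at 10 ng/ml. Since every change of medium added ligand, a change from SB to Activin also holds inhibitor removal, medium change and hours in culture. There were 2 lines per genotype and 1 library per line and treatment, and the labels do not say whether a line is 1 clone. Of 13508 named autosomal genes with a usable value in every library, 12823 had at least 1 FPKM in at least 2 of the 12 libraries and were tested. FPKM is a read count divided by transcript length and by the mapped reads of the library, so levels can be compared between genes.

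Activin and Nodal bind type II and type I receptor kinases, which phosphorylate SMAD2 and SMAD3. These join SMAD4 and act at target genes together with DNA-binding partners such as FOXH1. Many targets encode inhibitors of the pathway: the secreted Lefty proteins, the inhibitory SMAD7, and SnoN (gene Skil), a corepressor that holds SMAD targets off and that Arkadia marks for degradation. In embryonic stem cells leaving the naive state the pathway is known for maintaining Nanog and for inducing mesendoderm genes.

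Rnf111 stood at 0.855 and 0.681 FPKM in SB and at 0.667 and 0.539 FPKM at 6 h in null lines 25 and 39, below each of the 6 WT libraries. Read totals are not given, and relative depth was read from the smallest steps between low FPKM values. The 6 h library of null line 39 was the shallowest of the 12. The 6 h library of line 25 held an estimated 1.26 times its depth, and the SB libraries of lines 25 and 39 held 1.72 and 1.47 times. These estimates are rough, since each is the commonest ratio among low loci. It was seen at 72 of 428 loci for line 25 at 6 h, and at 62 of 434 and 85 of 398 for the SB libraries. All 8 markers of embryonic stem cells were present, with summed FPKM of 1091 and 1210 in SB and of 1189 and 1383 at 6 h. Pou5f1, which rose, held the largest part of each sum, while 5 of the 8 markers fell. In bulk RNA, fewer cells of a type and less RNA per cell cannot be told apart.

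In the null lines 2490 genes rose and 1536 fell after 6 h of Activin (limma on log2(FPKM + 1) with the cell line as a block, Benjamini-Hochberg adjusted p under 0.05). These were 19.4% and 12% of all genes tested, or 31.4% together. Most changes were small: 174 rises and 51 falls exceeded 2-fold, and the median change over all genes was 0.01 on the log2 scale. Genes that rose had a median level of 25.8 FPKM in SB, against 6.49 FPKM over all genes tested, whereas those that rose over 2-fold started from a median of 1.52 FPKM. Each log2 value below is a difference in log2(FPKM + 1), a scale that shrinks the changes of low genes, and each adjusted p is from this limma fit. Groups of 2 libraries that do not overlap are weak evidence, since uncalled genes such as Acvr2b (adjusted p = 0.53) show this too. The share of all genes tested with such groups is not given here.

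The 2 null lines moved in the same direction at 9954 of the 12823 genes (77.6%). Across genes, which are not independent replicates, the change in line 25 and the change in line 39 had a Pearson correlation of 0.61. In line 25, 236 genes were over 2-fold higher and in line 39, 250 were, with 139 in common. Falls over 2-fold numbered 144 and 140, with 37 in common, and 12 genes passed 2-fold in opposite directions. A locus that covers less than a share of 0.5 of the annotated gene is called partial here, since its value describes only that stretch. Partial loci numbered 2444 of the 12823 genes tested, 42 of the 174 rises over 2-fold and 16 of the 51 falls over 2-fold.

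**Figure D1:**
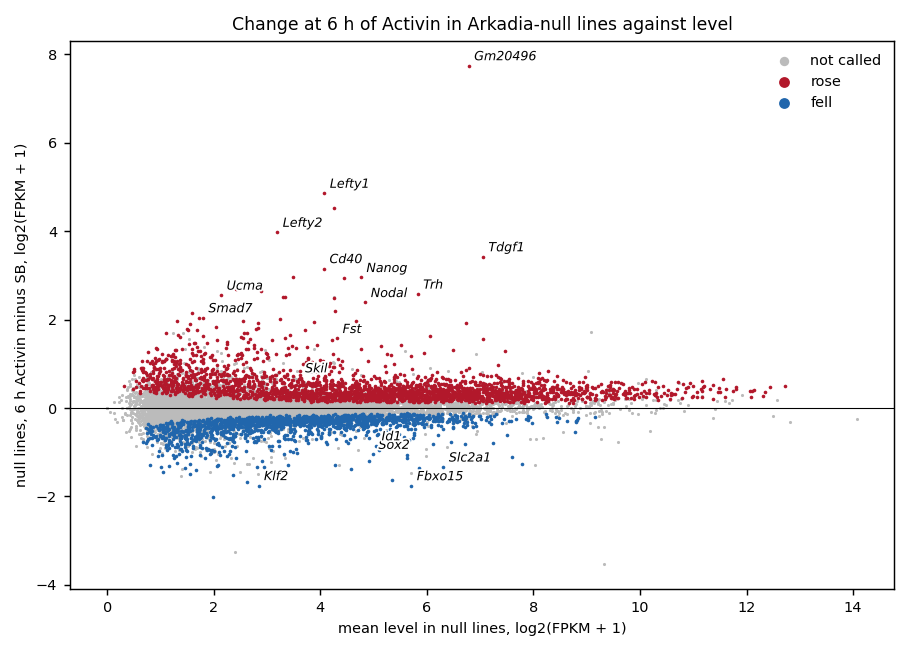
Change from SB to 6 h of Activin in the null lines (vertical axis, difference in log2(FPKM + 1)) against mean level in the null lines (horizontal axis, log2(FPKM + 1)), with a point per gene tested, red for the 2490 that rose, blue for the 1536 that fell and grey for the rest. Lefty1, Lefty2 and Tdgf1 stand above the bulk of the genes, and most called changes at high levels are small.

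Secreted inhibitors of the pathway were among the most strongly induced genes. Of 5 tested, 4 rose and 0 fell, with a median change of 1.57 against 0.01 over all genes. Lefty1, Lefty2 and Fstl3 passed the filter only through Activin libraries, so this count and median are partly set by the filter. Lefty1 (chromosome 1, 180934986 to 180938453, mm10, plus strand), a secreted antagonist that blocks Nodal, stood at 0.109 and 0.127 FPKM in SB in lines 25 and 39. At 6 h Lefty1 stood at 35.4 and 27.8 FPKM. Both 6 h libraries were far above both SB libraries, in which the gene was near 0, and Lefty1 rose by 4.86 (SE 0.12, adjusted p = 1.2e-05).

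Its neighbour Lefty2 (chromosome 1, 180892386 to 180899459, plus strand), a related antagonist, went from 0.0651 and 0.0858 FPKM to 19.4 and 13.0 FPKM. Lefty2 rose by 3.97 (SE 0.14, adjusted p = 3.4e-05), again with no overlap between the groups. Fst, encoding follistatin, which binds and neutralises Activin, stood at 8.55 and 9.45 FPKM in SB and at 26.3 and 31.4 FPKM at 6 h. Unlike the Lefty genes it was well expressed in SB, and it rose by 1.57 (SE 0.09, adjusted p = 0.00024). The follistatin-like gene Fstl1 rose by 0.18 (adjusted p = 0.03), a call that was lost without line 25 (0.13), without line 39 (0.11) and without the block (0.11). Fstl3 was not called (0.32, adjusted p = 0.43), and Cer1 and Inha were not analysed here.

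Among ligands, the Nodal co-receptor and the convertases that cleave ligand precursors, 5 of 7 tested genes rose and 0 fell, with a median of 0.39. Tgfb2 passed the filter only through Activin libraries, so this count and median are partly set by the filter. Promoter windows are shown for the genes of this set and for Nanog that carry the largest changes and that the RefSeq table holds. They were read from RefSeq on GRCm38.p6, from 250 bases before the annotated start to 50 bases from it, 5′ to 3′ on the strand of the gene. Capitals mark letters of the SMAD box (CAGAC, or GTCTG on the other strand) and of a FOXH1 motif (AATNCACA, or TGTGNATT on the other strand).
Nodal, chr10:61417722-61418021, plus strand: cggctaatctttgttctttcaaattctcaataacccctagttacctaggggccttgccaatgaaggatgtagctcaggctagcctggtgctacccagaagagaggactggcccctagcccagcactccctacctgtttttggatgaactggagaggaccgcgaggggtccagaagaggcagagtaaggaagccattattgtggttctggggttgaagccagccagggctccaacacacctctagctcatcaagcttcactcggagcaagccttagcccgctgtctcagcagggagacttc
Tdgf1, chr9:110946109-110946408, minus strand: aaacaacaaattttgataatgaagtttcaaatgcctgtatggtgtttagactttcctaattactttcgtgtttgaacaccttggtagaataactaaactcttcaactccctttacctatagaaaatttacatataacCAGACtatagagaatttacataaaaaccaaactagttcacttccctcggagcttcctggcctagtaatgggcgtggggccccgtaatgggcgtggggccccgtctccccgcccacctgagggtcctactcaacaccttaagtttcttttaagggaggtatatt
Nanog, chr6:122707239-122707538, plus strand: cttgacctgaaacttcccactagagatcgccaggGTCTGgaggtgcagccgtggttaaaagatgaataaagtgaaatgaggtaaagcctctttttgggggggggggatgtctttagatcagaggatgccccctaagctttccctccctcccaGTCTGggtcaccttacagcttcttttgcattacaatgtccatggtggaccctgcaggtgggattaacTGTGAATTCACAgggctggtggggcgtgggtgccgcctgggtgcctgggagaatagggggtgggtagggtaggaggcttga

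The Nanog window held 2 SMAD boxes and 2 FOXH1 matches, which overlap each other in the run TGTGAATTCACA, and the Tdgf1 window held 1 SMAD box. The Nodal window held none of these letters, which says nothing of sites elsewhere. The SMAD box letters are short and were found in 49.6% of all 32851 promoter windows of this length, and the FOXH1 letters in 3.60%. Among the 11645 windows of tested genes the shares were 47.3% and 2.11%. For genes that rose over 2-fold the shares were 57.8% and 5.93% of 135 windows, and for genes that fell over 2-fold 46.7% and 4.44% of 45 windows. The palindromic SMAD element GTCTAGAC was found in 0.213% of all windows, both strands being searched for each motif. These shares are descriptions of the letters and were not tested.

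Tdgf1 (chromosome 9, 110939602 to 110946232, minus strand), encoding the Nodal co-receptor Cripto, stood at 19.8 and 23.4 FPKM in SB and at 214 and 270 FPKM at 6 h. It was among the most abundant of the induced genes, with both 6 h libraries above both SB libraries, and it rose by 3.42 (SE 0.05, adjusted p = 1.1e-06). Its pseudogene Tdgf1-ps1 rose by 3.23 and may share reads with it, so both values are uncertain. Nodal (chromosome 10, 61418233 to 61425350, plus strand), the ligand itself, went from 8.72 and 7.69 FPKM to 42.7 and 51.9 FPKM. Nodal rose by 2.39 (SE 0.09, adjusted p = 5.4e-05), and the groups did not overlap.

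The other called ligand and convertase genes moved little. Furin, a convertase that cleaves the Nodal precursor, rose by 0.42, the TGFβ ligand gene Tgfb2 by 0.39 and the Nodal-related ligand gene Gdf3 by 0.25. Furin, Tgfb2 and Gdf3 were not called without line 39 (adjusted p = 0.22, 0.17 and 0.05), and Furin and Tgfb2 were called neither without line 25 (0.10 and 0.19) nor without the block (0.065 and 0.094). Gdf1 (0.01) and Tgfb1 (0.02), 2 further ligand genes, were not called.

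Of 9 tested receptors, 1 rose and 1 fell, against 19.4% and 12% of all genes tested, so the falls were near that share. The median was −0.04, and both called genes were at partial loci covering under 1% of the gene. Bmpr2, a type II receptor for BMP ligands, rose by 0.88 (adjusted p = 0.0056) at a locus covering a share of 0.00605. Tgfbr3, the co-receptor betaglycan, fell by 1.33 (adjusted p = 0.042) at a locus covering a share of 0.00213, and its adjusted p was 0.35 without line 25 and 0.087 without line 39. Acvr1b, the type I receptor for Activin and Nodal, stood at 3.57 and 4.32 FPKM in SB and at 2.65 and 3.04 FPKM at 6 h. All 4 values were close together, with the 6 h libraries the lower, and its change of −0.36 missed the threshold (adjusted p = 0.051). The type II Activin receptors Acvr2a (−0.04) and Acvr2b (−0.08) and the TGFβ receptor genes Tgfbr1 (0.08) and Tgfbr2 (−0.57, at a partial locus) were not called.

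SMAD transducers and their partners were also near their SB levels. Of 10 tested, 2 rose and 2 fell, with a median of 0.08, and the rises were near the 19.4% of all genes tested that rose. Smad2 rose by 0.18 and Smad3 fell by 0.34 (adjusted p = 0.026 and 0.048), while Smad4, the shared partner, had a change of −0.03 (adjusted p = 0.78). Foxh1, the DNA-binding partner of SMAD2 and SMAD3, stood at 27.4 and 24.6 FPKM in SB and at 19.3 and 18.3 FPKM at 6 h. Both 6 h libraries lay below both SB libraries, and Foxh1 fell by 0.44 (SE 0.07, adjusted p = 0.0063). Zfyve9, encoding the receptor-anchoring protein SARA, rose by 0.49 at a partial locus. Smad2, Smad3, Foxh1 and Zfyve9 were all lost without line 25 (adjusted p from 0.063 to 0.15) and without line 39 (0.06 to 0.36), and Smad2, Smad3 and Zfyve9 also without the block (0.064 to 0.11).

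Intracellular inhibitors of SMAD signalling, the class on which Arkadia acts, rose in 5 of 12 cases and fell in 1, with a median of 0.15. Pmepa1, Smad6 and Smad7 passed the filter only through Activin libraries, so this count and median are partly set by the filter. Smad7, which competes at the receptors and recruits ubiquitin ligases to them, stood at 0.383 and 0.330 FPKM in SB and at 4.83 and 4.35 FPKM at 6 h. The 2 lines were close to each other in both treatments, and Smad7 rose by 2.04 (SE 0.08, adjusted p = 5.7e-05). Skil, encoding SnoN, went from 8.81 and 7.97 FPKM to 14.1 and 14.0 FPKM and rose by 0.68 (SE 0.06, adjusted p = 0.00082). The 6 h values of the 2 lines were nearly equal and lay above both SB values.

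Pmepa1, a membrane protein that binds SMAD2 and SMAD3, rose by 1.01 (adjusted p = 0.0027) at a locus covering a share of 0.012 of the gene. Bambi, a pseudoreceptor that lacks a kinase domain, rose by 0.51 (adjusted p = 0.0039, and 0.05 without line 39), and the ubiquitin ligase gene Smurf2 by 0.30 (0.029). The ligase gene Nedd4l fell by 0.45 (adjusted p = 0.01, and 0.11 without line 25), and Smurf2 was not called without line 25 (0.19), line 39 (0.06) or the block (0.14). Ski (0.21), the corepressor related to SnoN, and Smad6 (0.01), the inhibitory SMAD of BMP signalling, were not called. Ldlrad4, related to Pmepa1, stayed under the level needed for testing, at 0.0591 and 0.0461 FPKM in SB and 0.375 and 0.440 FPKM at 6 h.

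**Figure D2:**
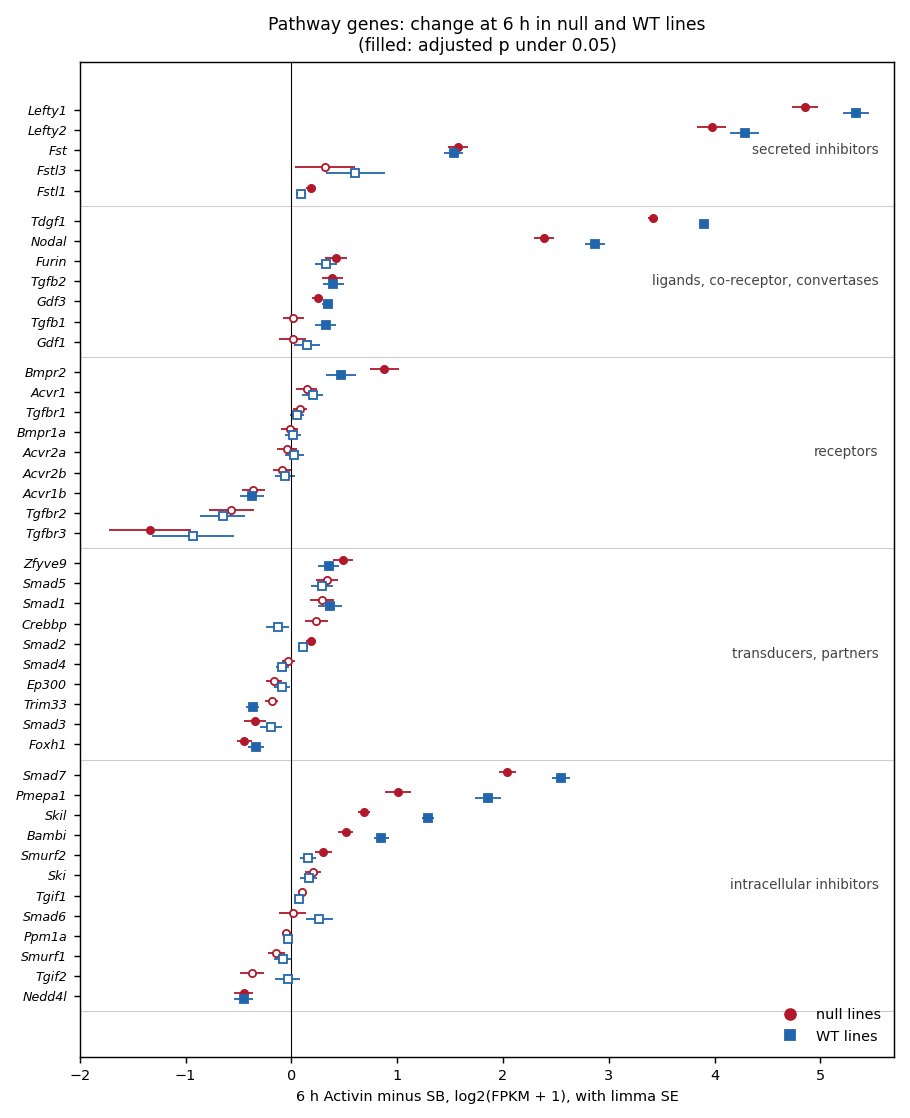
Change from SB to 6 h of Activin (horizontal axis, difference in log2(FPKM + 1), with the limma standard error as bars) for each tested gene of the 5 pathway lists, red circles for null lines and blue squares for WT lines, filled where the adjusted p was under 0.05. Lefty1, Lefty2, Tdgf1, Nodal and Smad7 lie far to the right in the null lines, and most receptors and transducers lie nearer 0, apart from Bmpr2 and Tgfbr3, called at partial loci.

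Outside the pathway lists the largest rises included immune genes and secreted peptides. Cd40, encoding a TNF-receptor-type protein of immune cells, went from 2.11 and 2.70 FPKM to 28.0 and 30.4 FPKM and rose by 3.15 (adjusted p = 2e-05). Irf1, an interferon regulatory factor, went from 4.30 and 3.76 FPKM to 37.8 and 36.8 FPKM and rose by 2.93 (adjusted p = 1.2e-05). For Cd40 and Irf1 the groups were well apart and the lines agreed within a few FPKM.

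Trh, encoding thyrotropin-releasing hormone, stood at 17.1 and 13.6 FPKM in SB and at 100.3 and 92.2 FPKM at 6 h, a rise of 2.58 (adjusted p = 7.6e-06). Ucma, a secreted protein first known from cartilage, rose by 2.55 from under 1 FPKM to 7.72 and 5.37 FPKM. Of the unnamed or antisense transcripts, Gm37913, Gm44514 and Gm16233 rose by 2.68, 2.64 and 2.51. Gm26569 rose by 2.95 at a partial locus where the lines differed, with 29.9 FPKM in line 25 and 8.67 FPKM in line 39 at 6 h. Gm20496 was listed at 0 in both SB libraries and at 268 and 169 FPKM at 6 h. Its locus has the same coordinates as Psmb8 on the opposite strand (chromosome 17, 34198312 to 34201452) and covers a share of 0.348 of the annotated antisense gene. How strand was used is not stated in the labels, so reads of Gm20496 and Psmb8 cannot be told apart, and the adjusted p of Gm20496 was 0.057 without line 25.

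The largest falls were smaller than the largest rises, and genes of the naive state were among them. Fbxo15, an F-box gene used as a reporter of pluripotency, stood at 79.3 and 79.8 FPKM in SB and at 25.2 and 20.8 FPKM at 6 h. The SB values were nearly equal and well above both 6 h values, and Fbxo15 fell by 1.75 on the log2 scale (SE 0.08, adjusted p = 8e-05). Klf2, a Krüppel-like factor of the naive network, went from 11.8 and 8.32 FPKM to 2.79 and 1.76 FPKM, a fall of the same size (−1.75). Gbx2, a homeobox gene of the LIF response, went from 9.40 and 8.57 FPKM to 4.15 and 2.03 FPKM and fell by 1.34 (adjusted p = 0.0035). None of Fbxo15, Klf2 and Gbx2 had overlapping groups.

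Txnip, an inhibitor of glucose uptake and of thioredoxin, stood at 73.9 and 89.8 FPKM in SB and at 28.9 and 34.0 FPKM at 6 h, and fell by 1.35 (SE 0.04, adjusted p = 1.4e-05). Enpp2, encoding autotaxin, which makes lysophosphatidic acid, went from 11.2 and 12.3 FPKM to 3.46 and 3.56 FPKM, a change of −1.5. Irak3, a negative regulator of Toll-like receptor signalling, changed by −1.40, and the transcripts Gm38165 and Gm45036 by −1.62 and −1.37. The remaining 7 of the 15 largest falls, Gm10138, Tmem163, Doc2a, Nr5a2, Phldb3, Rasa4 and Tgfbr3, were at partial loci, with changes from −2.02 to −1.33. Of these, Gm10138, Rasa4 and Tgfbr3 were not called without line 25 (adjusted p from 0.11 to 0.35), and Gm10138, Phldb3, Rasa4 and Tgfbr3 were not called without line 39 (0.071 to 0.12).

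**Figure D3:**
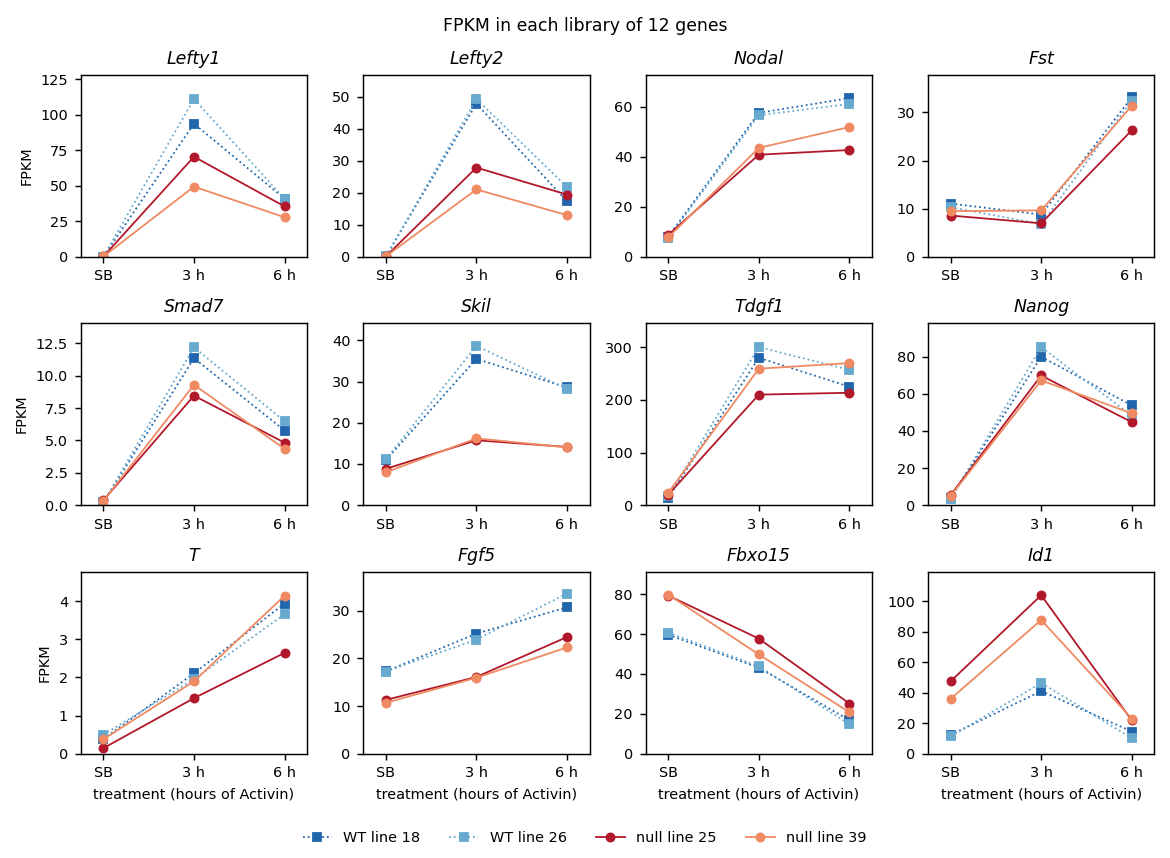
FPKM (vertical axes, from 0) of 12 genes in each library, in SB and after 3 and 6 h of Activin (horizontal axes), with a line per cell line, red for null and blue for WT. Lefty1, Lefty2, Smad7, Nanog and Id1 were lower at 6 h than at 3 h in both null lines, Fst, T and Fgf5 were highest at 6 h, and Fbxo15 declined through both times.

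Pluripotency genes moved in both directions. Over all genes tested 19.4% rose and 12% fell, and the counts of this and later lists are to be read against these shares. Among 14 naive genes 2 rose and 6 fell, with a median of −0.27, and among 15 core genes 3 rose and 6 fell, with a median of −0.12. The count of rises among core genes was near the share over all genes. Nanog (chromosome 6, 122707504 to 122714636, plus strand), the homeobox factor whose promoter window is printed above, stood at 5.44 and 4.98 FPKM in SB and at 44.7 and 49.5 FPKM at 6 h. Nanog rose by 2.95 (SE 0.08, adjusted p = 1.5e-05), with both 6 h libraries far above both SB libraries, while most called genes of its list fell. Sox2, a core factor, went the other way, from 44.8 and 38.9 FPKM to 20.5 and 18.9 FPKM, a fall of 1.05 (SE 0.05, adjusted p = 8e-05).

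Zfp42, encoding Rex1, a marker of the naive state, fell by 0.77 from 110.3 and 108 FPKM to 64.9 and 61.9 FPKM. Pou5f1, encoding Oct4, rose by 0.41, and its levels of 562 and 688 FPKM in SB and 740 and 926 FPKM at 6 h were above those of Nanog and Sox2 in each library. Dppa5a rose by 0.55. Sall4, a zinc finger factor, fell by 0.51 (adjusted p = 0.0039, and 0.071 without line 25), and Zscan10 fell by 0.59 (0.0058, and 0.078 without line 39). Without line 25 the core list held 2 rises and 2 falls, and without line 39 it held 3 and 3. The naive list held 1 rise and 5 falls in each case. Of the 8 markers of embryonic stem cells, drawn from these lists, 2 rose and 5 fell.

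Genes of the formative and primed epiblast did not move as a block: of 16 tested, 3 rose and 5 fell, with a median of −0.13. The rises here were near the 19.4% of all genes tested that rose. Fgf5, an FGF ligand that marks the epiblast after implantation, stood at 11.3 and 10.7 FPKM in SB and at 24.5 and 22.3 FPKM at 6 h. Both 6 h libraries were above both SB libraries, and Fgf5 rose by 1.02 (SE 0.06, adjusted p = 0.00022). Fgf15 rose by 2.26 from under 1 FPKM to 6.84 and 5.19 FPKM. Lef1, a partner of β-catenin, fell by 0.55 and Foxd3, a forkhead factor, by 0.43. Lef1 was not called without line 25 (adjusted p = 0.063) or the block (0.053), and Foxd3 was not called without line 25 (0.095) or line 39 (0.085). Without line 25 the list held 3 rises and 0 falls.

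Mesendoderm genes, which mark the forming primitive streak, rose in 5 of 6 tested cases and fell in 0, with a median of 1.11. The genes Mixl1, Tbx6, Mesp1, Gata6 and Mesp2 were not analysed here, and 5 others stayed below the level for testing. Fgf8, T, Wnt3 and Gsc were under 1 FPKM in every SB library and were tested only because Activin libraries reached that level. The count and median of this list are therefore partly set by the filter. Fgf8, a streak-stage FGF ligand, stood at 0.248 and 0.220 FPKM in SB and at 3.52 and 3.73 FPKM at 6 h, and rose by 1.91 (SE 0.18, adjusted p = 0.0012). T, encoding Brachyury, went from 0.145 and 0.379 FPKM to 2.64 and 4.14 FPKM and rose by 1.78 (SE 0.10, adjusted p = 0.00024). Both were near 0 in SB and reached only a few FPKM. Wnt3, a WNT ligand of the streak, rose by 1.17 and Eomes, a T-box factor, by 1.06, to 2.42 and 2.08 FPKM and to 3.33 and 3.00 FPKM. Gsc, the organiser gene Goosecoid, rose by 0.79 to 1.48 and 1.10 FPKM (adjusted p = 0.0041, and 0.072 without line 25).

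WNT targets and ligands included 5 rises and 2 falls among 14 genes, with a median of 0.17. Dkk1, Sp5 and Wnt5b passed the filter only through Activin libraries, so the count of rises and the median are partly set by the filter. The falls were near their share of all genes tested (12%). Dkk1, a secreted WNT antagonist, rose by 1.61 (adjusted p = 0.00097) and Lgr4, a receptor for R-spondins, by 1.10, from 8.28 and 7.01 FPKM to 19.5 and 15.6 FPKM. Sp5 and Wnt5b rose by 0.64 and 0.61, but were called neither without line 25 (adjusted p = 0.11 and 0.051) nor without line 39 (0.24 and 0.074). Without either line the list held 2 rises and 0 falls.

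BMP targets and ligands showed 2 rises and 6 falls among 17 genes, with a median of −0.30. Id1, an inhibitor of basic helix-loop-helix factors and a direct BMP target, stood at 47.5 and 36.0 FPKM in SB and at 21.9 and 23.0 FPKM at 6 h. Both 6 h values lay below both SB values, and Id1 fell by 0.85 (SE 0.16, adjusted p = 0.01, and 0.15 without line 25). Gata2 fell by 1.28 at a partial locus (adjusted p = 0.0067, 0.071 without line 25 and 0.095 without the block). Msx1, a homeobox target, moved the other way, from 2.94 and 2.00 FPKM to 7.77 and 7.57 FPKM, a rise of 1.33 (adjusted p = 0.00053). Id4 had a change of −1.37 that missed the threshold (adjusted p = 0.052). Without line 25 the list held 1 rise and 3 falls, and without line 39 it held 1 and 6.

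Feedback genes of FGF and ERK signalling were mixed, with 4 rises and 5 falls among 13 and a median of −0.12. Dusp4, an ERK phosphatase, stood at 31.2 and 24.8 FPKM in SB and at 17.6 and 14.0 FPKM at 6 h, a fall of 0.79 (adjusted p = 0.00019). Il17rd, the FGF antagonist Sef, rose by 1.02, from 1.32 and 1.25 FPKM to 3.77 and 3.51 FPKM. Spry1, another FGF antagonist, rose by 0.65 (adjusted p = 0.0056), and was not called without line 25 (0.067) or line 39 (0.071). Without either line the list held 1 rise and 1 fall. Of 19 immediate early genes 5 rose and 1 fell, with a median of 0.06. Junb rose by 1.21 at a partial locus and Myc by 0.65, from 8.75 and 8.08 FPKM to 13.7 and 13.9 FPKM. This list held 2 rises and 0 falls without line 25, and 2 and 1 without line 39.

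Of 16 interferon-type genes 9 rose and 0 fell, with a median of 0.78, and the counts were 9 and 0 without line 25 and 8 and 0 without line 39. Psmb8, an immunoproteasome subunit, rose by 2.14 from 0.181 and 0.0354 FPKM to 4.08 and 3.69 FPKM, at the locus it shares with Gm20496. It passed the filter only through Activin libraries, so the count of rises is partly set by the filter. Parp9, a mono-ADP-ribosyltransferase partner induced by interferon, went from 1.55 and 1.54 FPKM to 5.71 and 6.17 FPKM and rose by 1.44 (SE 0.11, adjusted p = 0.00059). Psmb10, another immunoproteasome subunit, went from 20.1 and 26.6 FPKM to 54.5 and 54.8 FPKM and rose by 1.20 (SE 0.10, adjusted p = 0.00075). In each of these genes both 6 h libraries were above both SB libraries. The list leads with Irf1, described above, while Irf7 and Irf9 were not analysed here.

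Genes of the matrix, of actin and of the YAP response rose in 13 of 28 cases and fell in 2, with a median of 0.22. Ctgf, a matricellular protein, stood at 9.43 and 7.59 FPKM in SB and at 28.8 and 24.7 FPKM at 6 h, and rose by 1.55 (SE 0.06, adjusted p = 3.6e-05). Thbs1, encoding thrombospondin, rose by 1.5 and Ankrd1, a YAP target, by 1.32. These 3 genes had both 6 h libraries above both SB libraries. Ankrd1 passed the filter only through Activin libraries, so the count of rises in this list is partly set by the filter. The counts were 11 rises and 0 falls without line 25 and 9 and 2 without line 39.

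Genes of glycolysis, glucose transport and hypoxia, taken as 1 list, fell in 12 of 26 cases and rose in 2, with a median of −0.22. Slc2a1, the glucose transporter GLUT1, stood at 115.6 and 109.5 FPKM in SB and at 45.0 and 43.1 FPKM at 6 h. The lines were close in both treatments, and Slc2a1 fell by 1.33 (SE 0.05, adjusted p = 4.3e-05). Slc2a3, the transporter GLUT3, fell by 0.54, from 35.1 and 32.0 FPKM to 24.3 and 21.2 FPKM. The count of falls was 4 without line 25 and 7 without line 39.

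Of 19 genes of cholesterol synthesis 11 rose and 1 fell, with a median of 0.23, but the counts were 5 and 3 after quantile normalization, which gives every library the same distribution of values. Msmo1, a sterol methyl oxidase, went from 245.9 and 279.1 FPKM to 424.2 and 439.3 FPKM and rose by 0.72 (adjusted p = 0.00026), and Idi1, an isomerase of the mevalonate pathway, rose by 0.64. Without either null line 8 of these genes rose and 0 fell. Of 25 respiratory chain genes 11 rose and 1 fell, with a median of 0.09. They gave 5 rises and 11 falls with a median of −0.06 after quantile normalization, and 0 and 0 without the block. Their direction therefore depends on the scaling. Ribosomal protein genes (73 genes) held 15.2% and 16.7% of summed FPKM in SB and 17.2% and 18.4% at 6 h, and their part in these counts was not tested.

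Among genes of cell division more fell than rose, by small amounts. Of 21 S phase genes 4 rose and 11 fell, with a median of −0.23, and of 22 mitosis genes 1 rose and 9 fell, with a median of −0.17. Mcm6 and Mcm2, subunits of the replicative helicase, fell by 0.39 and 0.35, and the mitotic kinase gene Plk1 by 0.36. Ccne2, encoding cyclin E2, stood apart from its list, with a rise of 0.69 from 28.1 and 34.1 FPKM to 46.4 and 55.4 FPKM (adjusted p = 0.0023). After quantile normalization mitosis genes gave 0 rises and 15 falls, with a median of −0.26. Without line 25 there were 1 fall among S phase genes and 1 among mitosis genes, and without line 39 there were 6 and 3. The adjusted p of Mcm6, Mcm2 and Plk1 without line 25 was 0.05, 0.097 and 0.10, and that of Plk1 was 0.061 without line 39.

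Among enzymes of DNA methylation 1 of 7 rose and 3 fell, with a median of −0.25. Dnmt3l, a cofactor of the de novo methyltransferases, stood at 93.7 and 82.3 FPKM in SB and at 61.6 and 53 FPKM at 6 h, a fall of 0.61 (SE 0.05, adjusted p = 0.00066). Uhrf1, which brings the maintenance methyltransferase to replicated DNA, fell by 0.48. Both SB libraries of Dnmt3l and of Uhrf1 were above both 6 h libraries. Apobec2, a member of the cytidine deaminase family, rose by 1.14 from 1.61 and 1.17 FPKM to 4.78 and 3.77 FPKM.

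Imprinted genes were called mostly as falls, 6 against 1 rise among 24, with a median of −0.15, but 0 rose and 0 fell without the block. Peg10, a paternally expressed gene derived from a retrotransposon, stood at 37.2 and 19.5 FPKM in SB and at 21.9 and 11.8 FPKM at 6 h. The groups overlapped, with line 25 at 6 h above line 39 in SB, while each line fell, and Peg10 fell by 0.71 within lines (SE 0.05, adjusted p = 0.00043, and 0.31 without the block). Cdkn1c, the imprinted cell cycle inhibitor p57, rose by 0.44 (adjusted p = 0.0031, and 0.58 without the block). In amino acid and unfolded protein stress 8 of 23 genes rose and 7 fell, with a median of 0.00, and after quantile normalization 3 rose and 8 fell. Chac1 and Sesn2, targets of the amino acid response, fell by 0.74 and 0.62, and Dnajb9, a chaperone of the endoplasmic reticulum, rose by 0.56. The stress list held 3 rises and 2 falls without line 25 and 3 and 4 without line 39, and the imprinted list 1 and 3 and 1 and 5.

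Genes of the LIF and STAT3 pathway, which sustains the naive state, gave 1 rise and 1 fall among 10, with a median of −0.09. Pim1, a kinase induced by STAT3, rose by 0.73 from 7.43 and 5.62 FPKM to 11.3 and 11.5 FPKM (adjusted p = 0.0045, and 0.057 without line 39). Lifr, the LIF receptor, fell by 0.39 (adjusted p = 0.0087) and was not called without line 25 (0.10), line 39 (0.10) or the block (0.07). Of 16 genes of the p53 response 3 rose and 3 fell, with a median of −0.01, and 0 rose and 0 fell without line 25 or without line 39. The count of rises in the p53 list was near the 19.4% of all genes tested that rose. Among these p53 genes Cdkn1a, the cell cycle inhibitor p21, rose by 0.57 (adjusted p = 0.0064, and 0.072 without the block).

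**Figure D4:**
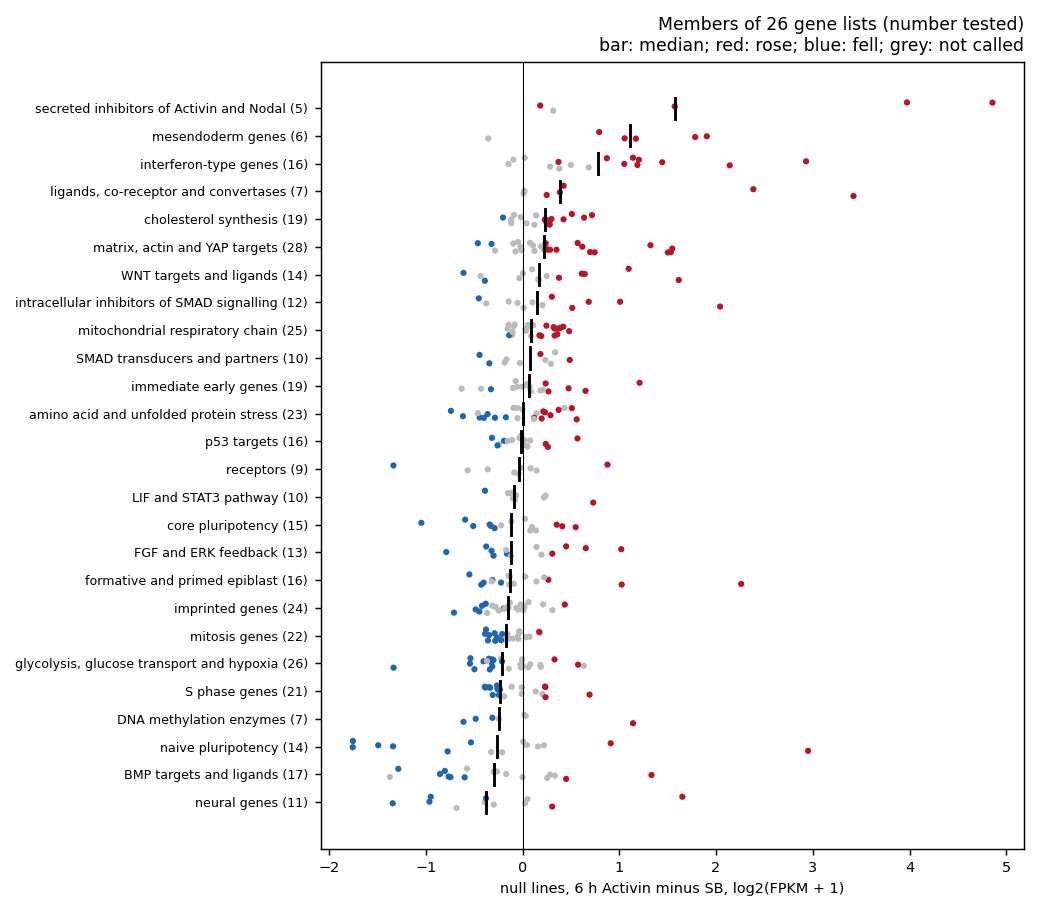
Change from SB to 6 h of Activin in the null lines (horizontal axis, difference in log2(FPKM + 1)) for each tested member of 26 gene lists, ordered by median (black bars), with red points for genes that rose, blue for genes that fell and grey for genes not called. Secreted inhibitors (median 1.57), mesendoderm (1.11) and interferon-type genes (0.78) have the highest medians, and BMP (−0.30) and neural genes (−0.38) the lowest. Some members of the highest lists, such as Lefty1, T and Psmb8, passed the filter only through Activin libraries.

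Neural genes had 2 rises and 4 falls among 11, with a median of −0.38, and 5 of the 11 were at partial loci. Hes1, a Notch target, stood at 4.53 and 3.88 FPKM in SB and at 15.3 and 15.4 FPKM at 6 h, and rose by 1.65 (SE 0.09, adjusted p = 0.0002). Pax6, an early neural factor, went from 4.92 and 3.14 FPKM to 2.11 and 1.11 FPKM and fell by 0.95 (adjusted p = 0.003). Of 5 markers of neural cells tested 0 rose and 3 fell (Pax6, Tubb3 and Map2). Without line 25 or line 39 the count was 0 and 1, and Neurog1, Neurog2 and Dcx were not analysed here. Their summed FPKM was 38 and 30.8 in SB and 26.4 and 21.9 at 6 h.

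Markers of other cell types were few among the called genes. For extraembryonic endoderm 0 of 4 tested rose and 0 fell, with summed FPKM of 10.7 and 10.8 in SB and 8.82 and 10.4 at 6 h, and Gata6, Sox7, Pdgfra and Ttr were not analysed here. For trophoblast 1 of 8 rose (Eomes, which is also a mesendoderm gene) and 1 fell (Tfap2c, −0.76), with summed FPKM of 62.2 and 40.2 in SB and 59.2 and 39.3 at 6 h. For fibroblasts 0 of 8 rose and 1 fell (Thy1, −0.68), with summed FPKM of 27.8 and 21.0 in SB and 20.6 and 18.1 at 6 h. For germ cells 1 of 11 rose (Ddx4, 0.33) and 1 fell (Tex19.1, −0.37), with summed FPKM of 265 and 299.8 in SB and 251 and 266 at 6 h. Tfap2c and Thy1 were not called without line 25 (adjusted p = 0.065 and 0.086), nor was Ddx4 without line 25 (0.068) or line 39 (0.067). Ddx4 and Tex19.1 were not called without the block (0.24 and 0.30).

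Between 3 and 6 h of Activin the null lines changed further. Relative to 3 h, 1140 genes were higher and 584 lower at 6 h (8.89% and 4.55% of genes tested, or 13.4% together; limma with the cell line as a block). With any single line left out, 0 genes were called in this comparison, in a fit with fewer samples. Against SB, 1986 genes were higher and 1802 lower at 3 h (15.5% and 14.1%, or 29.5% together). Without line 25 these counts were 345 and 104. In the 3 h library of that line the 10 highest loci held 15.9% of summed FPKM, against 7.25% to 11.4% in the other libraries, and their part in the counts was not tested. The comparisons with SB share the SB libraries, and the values at each time are given side by side.

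Some feedback genes stood below their 3 h level. Lefty1 was at 70.5 and 49.4 FPKM at 3 h and at 35.4 and 27.8 FPKM at 6 h, a difference of −0.89 (adjusted p = 0.011). Smad7 was at 8.46 and 9.30 FPKM at 3 h and at 4.83 and 4.35 FPKM at 6 h, a difference of −0.82 (adjusted p = 0.0057). Among intracellular inhibitors 0 of 12 were higher and 6 lower at 6 h than at 3 h. Skil, at 15.7 and 16.2 FPKM at 3 h, differed by −0.17 (adjusted p = 0.099). Nodal (0.15, adjusted p = 0.30) and Tdgf1 (0.04, adjusted p = 0.58) were not called between the times.

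Of the 5 secreted inhibitors, Lefty1 and Lefty2 were lower at 6 h than at 3 h, Fst was higher, and Fstl1 and Fstl3 were not called. At 3 h Fst stood at 6.94 and 9.63 FPKM, close to its SB level, and between 3 and 6 h it rose by 1.69 (SE 0.09, adjusted p = 0.0031). Fam19a4, a secreted peptide gene, went from 2.3 and 1.8 FPKM at 3 h to 8.05 and 8.02 FPKM at 6 h, a difference of 1.57 (adjusted p = 0.0039). The other 6 of the 8 largest rises after 3 h (Gm16764, Avpr1a, Cd200, 9230111E07Rik, Tnfaip3 and Zfp503) were at partial loci. Interferon-type genes were higher at 6 h than at 3 h in 7 of 16 cases and lower in 1, although Irf1 itself fell by 0.69 between the times (adjusted p = 0.0065).

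Id1 led the genes that were lower at 6 h than at 3 h. It stood at 103.9 and 87.7 FPKM at 3 h, above both SB and both 6 h libraries of the null lines, and fell by 2.04 from 3 to 6 h (SE 0.16, adjusted p = 0.0042). Id4 fell by 1.86 and Gsc by 1.34, from 4.77 and 4.75 FPKM to 1.48 and 1.10 FPKM. Of 17 BMP targets and ligands 1 was higher and 9 lower at 6 h than at 3 h, and Msx1 was among those lower (−1.12). Nin, Gm9748, Cct6b and Mn1, also among the 8 largest decreases, were at partial loci.

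WT lines gave the reference for the size of the response, with no library in common. In WT lines 2770 genes rose and 1572 fell at 6 h (21.6% and 12.3% of genes tested, or 33.9% together). Of the rises in null lines, 2103 were also called as rises in WT lines, which is 84.5% of the null list and 75.9% of the WT list. Of the falls, 1057 were shared, 68.8% of the null list and 67.2% of the WT list, and 5 genes were called in opposite directions. Of the 174 rises over 2-fold in null lines, 153 were called in WT lines and 98 had a larger change there. Of the 51 falls over 2-fold, 36 were called in WT lines and 19 had a larger fall there. Both sets were chosen by the size of the change in null lines, so these counts do not compare the genotypes evenly.

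The difference in response between genotypes was tested directly, as the interaction of genotype with 6 h of Activin. No gene was called (0 of 12823, or 0%; limma, lowest adjusted p = 0.11), and 716 genes (5.58%) had an unadjusted p under 0.05. A missing call does not show that the responses were equal, and the following intervals are unadjusted 95% intervals of the difference, null minus WT, on the log2 scale. Skil rose by 0.68 in null and by 1.29 in WT lines, in which it reached 28.6 and 28.2 FPKM at 6 h, above both null lines. Its difference was −0.61 (interval −0.80 to −0.41, adjusted p = 0.30). Tdgf1 had a difference of −0.48 (−0.64 to −0.33), Nodal of −0.48 (−0.80 to −0.16) and Smad7 of −0.51 (−0.79 to −0.23). At 6 h Tdgf1 stood at 225 and 257 FPKM in WT lines, between the 214 and 270 FPKM of the null lines. In SB it stood at 13.9 and 16.6 FPKM in WT lines, below the 19.8 and 23.4 FPKM of the null lines.

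The differences of other leading genes took either sign. Lefty1 differed by −0.48 (−0.90 to −0.06), Nanog by −0.52 (−0.80 to −0.23) and Pmepa1, at its partial locus, by −0.85 (−1.28 to −0.43). The interval of Lefty2 (−0.31, from −0.78 to 0.16) includes 0. Fst differed by 0.04 (−0.28 to 0.35), so a difference as large as that of Skil lies outside its interval. Cdkn1c differed by −0.62 (−0.81 to −0.42), Gsc by −0.64 (−1.03 to −0.26) and Id1, which had a change of 0.04 in WT lines, by −0.89 (−1.44 to −0.34). Id1, Cdkn1c and Nanog also started from unlike levels. Nanog stood at 5.44 and 4.98 FPKM in SB in null lines and at 3.95 and 3.45 FPKM in WT lines. In SB Id1 stood at 47.5 and 36.0 FPKM in null lines and at 12.2 and 11.4 FPKM in WT lines. For Cdkn1c the SB levels were 107.8 and 81.7 FPKM in null lines and 31.7 and 77.7 FPKM in WT lines. Positive differences were seen at partial loci, among them Tnfaip3 (0.72, from 0.16 to 1.27), Gm26569 (1.62, from 0.20 to 3.03) and Gm20496 (3.23, from −0.06 to 6.52). Smaller positive differences were seen at loci that cover the gene, among them Peg3 (0.30, from 0.12 to 0.48) and Dusp4 (0.19, from 0.04 to 0.33). All of these stayed above the threshold after adjustment (adjusted p from 0.30 to 1.0).

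**Figure D5:**
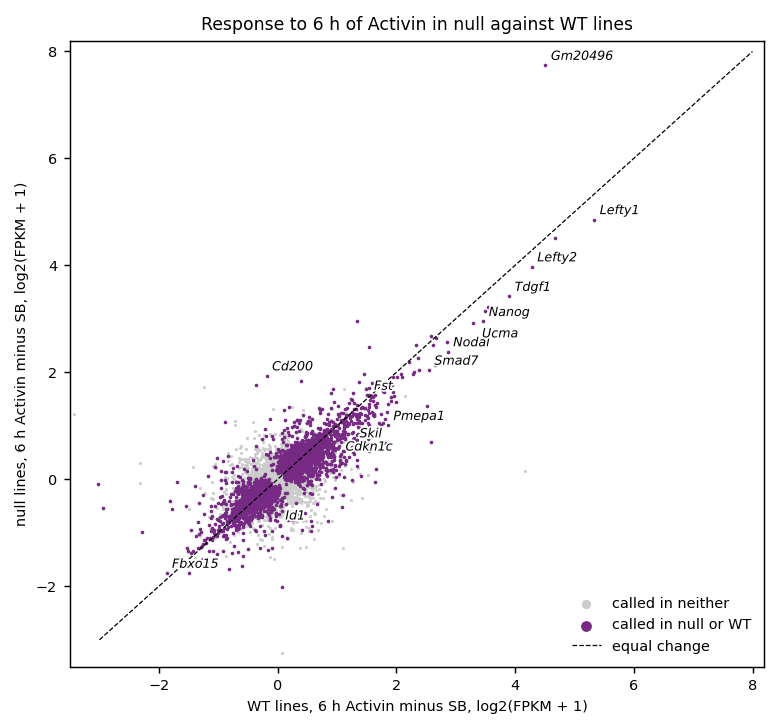
Change from SB to 6 h of Activin in null lines (vertical axis) against WT lines (horizontal axis), both as differences in log2(FPKM + 1), with a point per gene tested, purple where called in null or WT lines, and a dashed line of equal change. Lefty1, Tdgf1, Nanog, Nodal, Smad7, Pmepa1 and Skil lie below the dashed line and Fst on it, while Cd200 and Gm20496, both at partial loci, lie above it.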

How the data were processed

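RNA from 12 libraries of 4 mouse embryonic stem cell lines was measured by poly(A)-selected sequencing with 50 bp single reads, per the labels' protocols. The authors deposited FPKM per gene locus and library with a status flag, per the file headers. Per the submitters' processing notes the genome build was mm10. Aligner, quantifier and strand use: not given in the sources used here. The table held 17446 loci. Of these, 2666 without a gene name, 27 with a status other than OK and 1245 further loci of a name already kept (the locus with the highest mean FPKM stayed) were left out, which gave 13508 genes. Starts were raised by 1 so that they count from 1. By symbol, 13164 (97.5%) were found in GENCODE M21 (GRCm38).

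Genes that reached 1 FPKM in 2 or more libraries were fitted with limma 3.58.1 in R 4.3.3 on log2(FPKM + 1), a pseudocount of 1, with a trend on mean expression. The model held an intercept per cell line and the effects of 3 and 6 h of Activin in each genotype, with 4 residual degrees of freedom over all 12 libraries. P-values were two-sided and adjusted by Benjamini-Hochberg over the 12823 genes, with 0.05 as the threshold. The line number pairs the samples because the same line gave each dish. Residuals of libraries of the same line correlated at 0.246 to 0.349 in null lines and at 0.017 to 0.054 in WT lines. The intercepts remove differences in level between lines. P-values therefore rest on how far the changes differ between the 2 lines of a genotype, in 1 estimate per gene shared by both genotypes. The fit was tested on simulated data.

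The genes named were the 15 largest rises and falls, the 8 largest differences from 3 h in each direction, up to 4 members of each list, all tested genes of 5 pathway lists, the marker lists and Rnf111. The ranked genes had to be called, to reach a mean of 2 FPKM and to move alike in both lines. The comparison, its genes and its 26 gene lists and 6 marker lists were chosen with earlier results of these data known. No set test was run. Alternatives were the block, pseudocounts of 0.1 and 5, no filter or 5 FPKM, quantile and median-of-ratios scaling, the compared groups alone, and leaving out each line. Counts of list members without a null line were added after seeing the data. Some of the genes the rule picked are not reported here.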

Additional observations from a re-analysis of the deposited data

Results flagged for a closer look

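Cd200 was singled out because its level was higher at 6 h than in SB in both null lines and lower in both WT lines. Cd200, a membrane glycoprotein that restrains myeloid cells, stood at 2.55 and 8.35 FPKM in SB and at 15.8 and 27.9 FPKM at 6 h in null lines 25 and 39. In WT lines 18 and 26 it stood at 7.93 and 7.93 FPKM in SB and at 6.51 and 7.22 FPKM at 6 h. It rose by 1.94 in the null lines (limma adjusted p = 0.0013) and had a change of −0.18 in WT lines (adjusted p = 0.49). The difference, null minus WT, was 2.12 on the log2 scale (SE 0.27, adjusted p = 0.30), which does not pass the threshold. The locus (chromosome 16, 45382542 to 45382985, mm10, minus strand) covers a share of 0.0165 of the gene. Groups held 2 libraries each, so single libraries were not screened for outlying values.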

How the results depend on the processing

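For 6 h against SB in null lines, 2490 genes rose and 1536 fell. With no replicate block the counts were 1009 and 709, and with the compared groups alone 1775 and 717. Leaving out 1 line gave 1227 to 1626 rises and 313 to 848 falls. Without line 25 they were 1227 and 313, without line 39 1433 and 439, without line 18 1624 and 844, and without line 26 1626 and 848. After quantile normalization 1761 genes rose and 1842 fell, so that falls then outnumbered rises. Median-of-ratios scaling gave 2495 and 1573.

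For 6 h against 3 h in null lines (1140 and 584), the counts were 356 and 238 with no replicate block, 681 and 582 after quantile normalization, and 820 and 702 after median-of-ratios scaling. They were 0 and 0 with the compared groups alone and ranged from 0 to 0 with any line left out. For 3 h against SB (1986 and 1802) they were 834 and 915 with no replicate block and 290 and 72 with the compared groups alone. Leaving out 1 line gave 345 to 1400 rises and 104 to 820 falls, and quantile normalization gave 1644 and 1939. For WT lines (2770 and 1572) they were 1230 and 809 with no replicate block and 1947 and 2071 after quantile normalization. With the compared groups alone 2150 rose and 860 fell, and leaving out 1 line gave 247 to 2660 rises and 64 to 1381 falls. The causes were not tested. The difference in response between genotypes stayed at 0 genes under every alternative run.

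Of 135 named genes called at 6 h against SB, 33 lost the call with no replicate block, 47 without line 25, 36 without line 39, 16 without line 18, 16 without line 26, 21 with the compared groups alone and 5 after quantile normalization. None of the named genes reversed under the alternatives run. With a null line left out, the fit has 2 residual degrees of freedom, and the lone null line is assumed to vary like the WT lines. FPKM gives no read counts, so counting error cannot be stated, and low genes are least precise in the shallow 6 h libraries.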
